A study of Mus musculus with 6 samples.

Results

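Opposite-strand transcripts are RNAs named after the protein-coding gene they lie against, with the suffix os added to the symbol of that host gene. They were taken from the table by their names: symbols ending in os, or in os and a digit, with at least 10 UMIs over all nuclei, where a UMI (unique molecular identifier) stands for 1 captured RNA molecule. Protein-coding genes whose symbols only share these letters (Fos, Mos, Icos, Nos1, Nos2, Nos3, Ros1, Sos1 and Sos2) were left out. Of 222 symbols with the letters, 165 reached 10 UMIs, out of 19954 symbols in the table. For 153 of the 165 the rest of the symbol is a gene name, and 137 distinct host genes were in the table. The other 12 have no host by that rule. They include Minos1, Mios, Pros1, Uros and Nanos1, which are annotated as protein-coding, and they are counted among the 165 but have no host value. At the edge of the rule, 5 symbols had exactly 10 UMIs and 5 had 9.

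The samples were single-nucleus RNA libraries from wild type C57BL/6 mice whose legs had been paralysed by a severe thoracic contusion injury. In the 3 TESS samples the animals spent 30 min on a treadmill with the stimulation that the study names TESS, under which, with 5-HT1a and D1 agonists given, paralysed mice walked. In the 3 CON samples, with the condition given as paralyzed, they spent 30 min on the treadmill without it. Whether the CON animals also received the agonists is not given in the sources used here, nor is an age. The labels name lumbar spinal cord as the source, whereas the protocol text speaks of the thoracic injury site. Nothing in the labels ties a sample to 1 animal, and the p-values therefore measure only the spread between these samples, which may be technical.

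The table held 18514 nuclei, against 20484 in the study's own description, and 6035 neurons against 6171. TESS libraries held 1582104 to 2891177 UMIs in 2192 to 2839 nuclei, and CON libraries 3365530 to 4037976 UMIs in 3416 to 3780 nuclei. The median nucleus had 424 to 598 UMIs in TESS libraries and 544.5 to 707 UMIs in CON libraries. Of 18308 distinct barcodes, 205 occurred in more than 1 library. Batch 3 of the authors' metadata held TESS 1, CON 1 and CON 2, and the other 3 libraries had a batch each. The 3 markers of each of the authors' 6 cell classes, as a share of class UMIs, summed highest in that class in every library. Within a class, its own markers were not always the highest. In microglia the oligodendrocyte markers summed above the microglia markers in TESS 2, TESS 3 and CON 3. In oligodendrocyte precursor cells they summed above the precursor markers in TESS 3 and in all CON libraries. In the remaining classes the class's own markers summed highest in every library.

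Many mammalian genes are overlapped by a transcript read from the other DNA strand. Such natural antisense transcripts are often spliced and polyadenylated, tend to stay in the nucleus and are usually less abundant than the gene they overlap. Some act on the host by changing chromatin, transcription or splicing, while for most no function is known, and their levels often follow the cell type in which the locus is open.

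The 165 symbols gave 45424 UMIs in all, with a median of 58 per symbol. Nrg3os was the most abundant at 7032 UMIs, 10 symbols had 1000 UMIs or more, 63 had 100 or more, and 75 had 10 to 49. The GENCODE vM21 annotation of GRCm38 gave 132 of them the class antisense, 18 protein-coding and 7 lincRNA. All 148 that could be placed beside their host lay on its opposite strand. The whole transcript lay inside the host gene for 60, it overlapped the host's 5′ end for 40 and its 3′ end for 16, and it started upstream and ran away from the host for 22. A further 4 lay downstream and ran towards the host, 6 contained the host, and for 17 the transcript or the host could not be placed. Because the strand setting of the counting is not given in the sources used here, reads of an overlapping pair cannot be assigned with certainty to the transcript or to its host.

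Of the 147 transcripts with a host in the table, 21 had more UMIs than the host. Brip1os had 1480 UMIs against 50 for Brip1, a DNA helicase of double-strand break repair, and Man2c1os had 1720 UMIs against 793 for Man2c1, a cytosolic mannosidase. Levels of different genes were compared per kilobase of annotated gene, introns included, over all nuclei. On that scale Nrg3os had 116 UMIs per kb and Nrg3 had 63.0, Dtnbos had 189.9 and Dtnb 21.1, and Sox5os4 had 19.3 and Sox5 had 3.69. Sorbs2os was the other way round, at 7.18 UMIs per kb against 18.4 for Sorbs2. Among 72 placed pairs with at least 50 UMIs on each side, the transcript was the higher of the pair per kb in 37, with a median ratio of 1.12. The kit primes on poly(A) and the setting for intronic reads is not given, so counts need not scale with gene length. Division by the whole gene lowers the value of long hosts, and these ratios do not rank the abundance of transcript and host.

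Except for Chd3os, which could not be placed, the transcripts on which the comparison turns lie inside their host genes. Sox5os4 (chr6:144720911-144759883, plus strand, 3 exons) lies inside Sox5, which encodes a SOX transcription factor. Nrg3os (chr14:38898302-38958794, plus strand, 5 exons) lies inside Nrg3, the gene of neuregulin 3, a ligand of the receptor ErbB4. Dtnbos (chr12:3752543-3762146, minus strand, 3 exons) lies inside Dtnb, which encodes beta-dystrobrevin of the dystrophin-associated complex. Rab11fip4os1 (chr11:79607079-79623163, minus strand, 3 exons) lies inside Rab11fip4, a Rab11 effector of recycling endosomes. None of the exons of these 4 shares a base with an exon of the host. Sorbs2os (chr8:45723325-45819297, minus strand, 6 exons) lies inside Sorbs2, an SH3 adaptor of the actin cytoskeleton, and shares 1051 exonic bases with it. Far1os (chr7:113530489-113564987, minus strand, 7 exons) lies inside Far1, the peroxisomal reductase that makes fatty alcohols for ether lipids, and shares 80. Chd3os could not be placed by its symbol in GENCODE vM21. RefSeq gives Chd3os as another name of Rnf227, a long non-coding RNA gene on chromosome 11. That is the chromosome of Chd3, which encodes an ATPase of the NuRD chromatin remodelling complex. The strand of Chd3os and its position relative to Chd3 were not established here, so Chd3 is its host by name only.

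The library kit primes reverse transcription on poly(A), so the 3′ end is the stretch of each transcript nearest to where its reads start. The last 120 bases of the longest annotated transcript of each of the 6 placed genes are shown for that reason, 5′ to 3′ on the transcript's own strand, from the GRCm38 transcript sequences of GENCODE vM21. Capitals mark a polyadenylation signal, searched as AATAAA or ATTAAA on the transcript strand alone.
Sox5os4: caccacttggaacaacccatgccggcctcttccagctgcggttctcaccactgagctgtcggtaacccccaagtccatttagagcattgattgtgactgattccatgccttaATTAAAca
Nrg3os: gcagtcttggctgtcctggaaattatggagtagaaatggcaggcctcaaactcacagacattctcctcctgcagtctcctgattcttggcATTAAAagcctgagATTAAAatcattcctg
Dtnbos: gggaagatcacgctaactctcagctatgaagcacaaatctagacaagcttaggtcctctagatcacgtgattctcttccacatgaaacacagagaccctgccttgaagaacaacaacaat
Rab11fip4os1: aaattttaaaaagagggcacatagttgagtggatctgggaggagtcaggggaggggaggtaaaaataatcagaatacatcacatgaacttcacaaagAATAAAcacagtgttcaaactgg
Sorbs2os: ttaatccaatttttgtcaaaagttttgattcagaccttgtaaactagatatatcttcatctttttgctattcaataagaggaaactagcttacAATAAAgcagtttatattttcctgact
Far1os: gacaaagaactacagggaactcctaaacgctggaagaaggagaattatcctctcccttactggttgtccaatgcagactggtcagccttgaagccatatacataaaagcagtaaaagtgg

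Nrg3os held 2 such signals in this window, Sox5os4, Rab11fip4os1 and Sorbs2os held 1 each, and the letters of neither form occur in the windows of Dtnbos and Far1os. Over the 162 opposite-strand symbols with a transcript of at least 120 bases, 98 (60.5%) held a signal in the last 120 bases, against 45.0% of 51034 annotated genes. The sets are unlike, since the 162 had at least 10 UMIs here and the annotated genes were taken whether detected or not. These shares are therefore no measure of enrichment. A match describes these letters and is not evidence of use.

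Across all nuclei, opposite-strand transcripts were lower in TESS than in CON samples more often than they were higher, while their host genes were not. The summed level of the 153 transcripts with a host symbol was 1876, 2161 and 1729 CPM (UMIs per 1000000 UMIs of the same sample) in TESS samples and 2350, 2587 and 2311 CPM in CON samples. Every TESS sample lay below every CON sample. The 137 host genes together had 16971, 17885 and 16915 CPM in TESS samples and 16257, 16467 and 16846 CPM in CON samples, so their TESS values all lay above those of CON. In class sums of this kind, fewer nuclei with the transcript and less RNA per nucleus cannot be told apart.

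Each transcript was tested with edgeR on UMIs summed per sample, and 85 of the 165 passed the filter on low counts. Of those, 61 had a log2 fold change below 0 and 24 above, with a median of -0.31 on the log2 scale. The median was -0.00 over all 13391 genes tested, and 0.05 over the 124 host genes tested, of which 46 were below 0. Since a transcript can pass that filter through its CON samples alone, the pooled UMIs of all 165 were also compared without it. By that measure 95 of 165 were lower in TESS, with a median log2 ratio of -0.18. Of genes with at least 10 UMIs, 7950 of 16922 were lower, with a median of 0.02. The minimum of 10 UMIs, by which the 165 were taken, can itself be met through CON samples alone. Transcripts annotated as antisense without an os name were also mostly lower, with 289 of 386 tested below 0 and a median of -0.35. Among intergenic long non-coding RNAs, 190 of 315 tested were below 0, with a median of -0.12. In batch 3 alone, TESS 1 against CON 1 and CON 2, the median over 112 of the 165 tested was -0.46.

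At a Benjamini-Hochberg adjusted p below 0.05 over all genes tested, 3 transcripts were lower in TESS and 0 were higher. Over all genes 0.5% were called lower. Of the 386 tested antisense transcripts without an os name, 16 were called lower and 0 higher. The 3 opposite-strand transcripts called were Sox5os4, Chd3os and Rab11fip4os1. Of the 124 hosts, Igf1, the gene of insulin-like growth factor 1, was called higher (0.94 ± 0.21, edgeR adjusted p = 0.0455), with a fold change of 0.38 inside batch 3. Over all genes 0.254% were called higher. In 26 of the 85 tested, all TESS samples lay below all CON samples. That pattern was found in 10.6% of all genes tested and in 91 of the 386 antisense transcripts without an os name. In 1 of the 85 they all lay above, a pattern found in 1357 of all 13391 genes tested. Such counts over lists of genes used CPM after the normalization of the test, so they can differ from the CPM printed per gene.

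Sox5os4 had 22.1, 26.8 and 19.6 CPM in the 3 TESS samples and 51.5, 58.4 and 45.2 CPM in the 3 CON samples, from 157 UMIs in TESS and 594 in CON. The groups did not overlap, and the lowest CON value was well above the highest TESS value. The log2 fold change was -1.20 ± 0.18 (SE, edgeR adjusted p = 0.00556), and it was -1.35 inside batch 3. The host Sox5 had 163.6, 205.5 and 179.5 CPM in TESS samples and 214.8, 207.3 and 175.3 CPM in CON samples. These ranges overlapped, and the fold change of Sox5 was -0.15 ± 0.13 with an adjusted p of 0.621.

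A second transcript inside the same gene, Sox5os2, had 10.0, 15.1 and 3.2 CPM in TESS samples and 13.7, 18.8 and 15.5 CPM in CON samples. Its fold change was -0.71 ± 0.33, its adjusted p was 0.320 and its groups overlapped.

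Chd3os had 39.4, 32.8 and 39.2 CPM in TESS samples and 65.2, 59.4 and 69.8 CPM in CON samples. The groups lay apart, with a fold change of -0.83 ± 0.15 and an edgeR adjusted p of 0.0156. Chd3 averaged 60.8 ± 13.3 CPM in TESS and 62.7 ± 14.9 CPM in CON samples (SD, n = 3 each), and its fold change was -0.08 ± 0.20.

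Rab11fip4os1 was the scarcest of the 3, with 24 UMIs in TESS and 129 in CON. Its values were 3.1, 4.7 and 2.5 CPM in TESS samples and 10.2, 12.9 and 10.7 CPM in CON samples, which gave a fold change of -1.70 ± 0.33 (edgeR adjusted p = 0.0293). Rab11fip4 itself was lower in each TESS sample than in each CON sample, at 64.0 ± 5.0 CPM in TESS and 76.4 ± 4.1 CPM in CON (SD, n = 3 each). That difference of -0.29 ± 0.13 had an adjusted p of 0.314.

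With batch as a covariate, so that only the 3 libraries of batch 3 inform the comparison, the adjusted p of these 3 was 0.610 to 0.650 and 0 transcripts were called. At an unadjusted p below 0.05 that fit, of 1 TESS library against 2 CON libraries, had 15 of the 85 lower, and 3.69% of all genes. Leaving out 1 sample at a time kept the call of Sox5os4 in 6 of 6 fits, that of Chd3os in 4 (lost without TESS 3 or CON 3, adjusted p up to 0.0609) and that of Rab11fip4os1 in 2 (lost without TESS 1, TESS 3, CON 2 or CON 3, up to 0.137).

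The fold changes were also set out by the position of the transcript relative to its host, with no test between positions. Of the 60 transcripts inside their host, 29 were tested, 24 of them had a fold change below 0, and the median was -0.52. With no filter 44 of the 60 were below 0, with a median of -0.49. Transcripts over the host's 5′ end had a median of -0.19 with 12 of 20 tested below 0, those over its 3′ end -0.32 with 6 of 8, and divergent upstream transcripts -0.29 with 8 of 10. The 53 tested hosts of the inside group had a median of 0.06, and 17 of them were below 0. None of those 53 passed the edgeR test, and 3 were higher and 1 lower at an unadjusted p below 0.05, where 6.62% of all genes were higher and 8.29% lower.

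**Figure D1:**
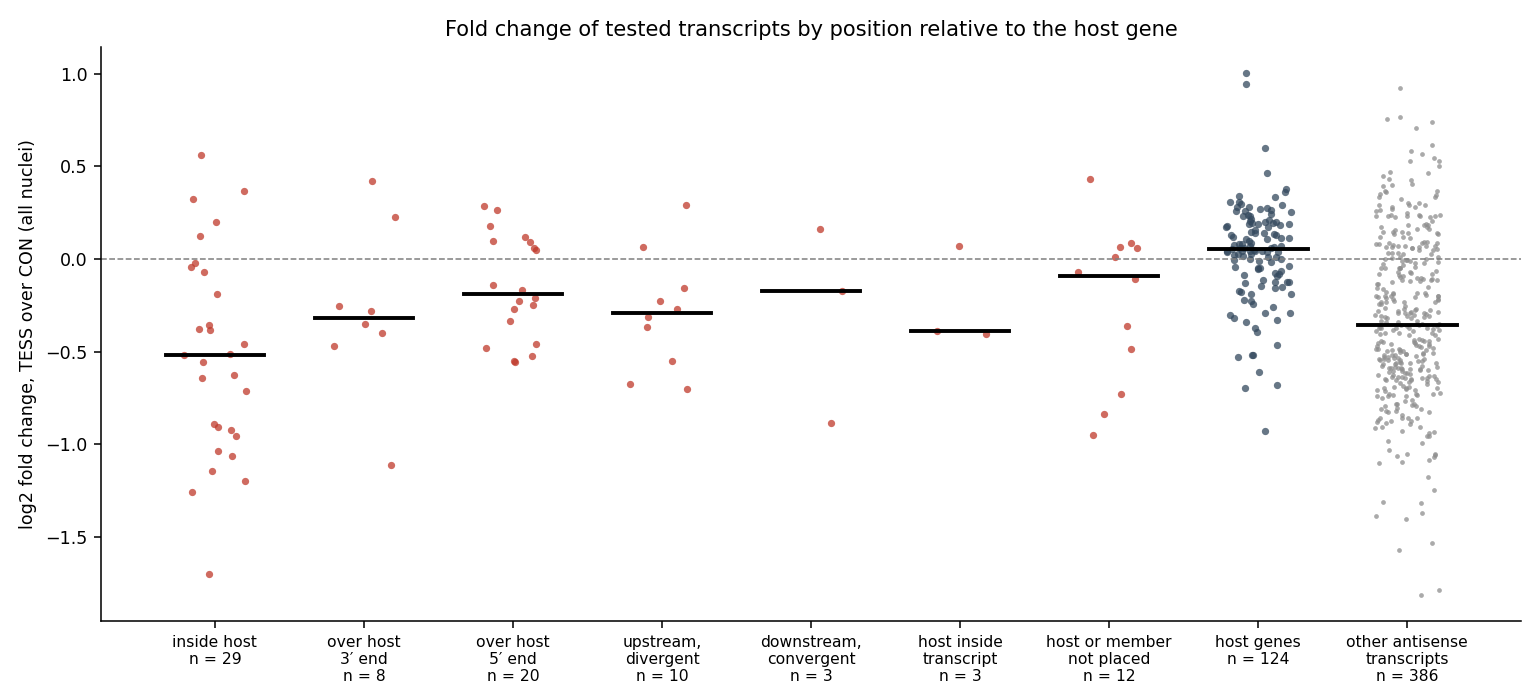
Log2 fold change of TESS over CON in all nuclei (y axis) for each tested opposite-strand transcript, grouped by position relative to its host gene (x axis), beside the host genes and antisense transcripts with no os name. Points are genes and black bars are medians; the bar of transcripts inside their host lies at -0.52, that of the host genes at 0.05 and that of other antisense transcripts at -0.35.

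Within the inside group, transcripts whose exons share no base with host exons were lower in 15 of 15 tested, with a median of -0.63. With no filter 26 of these 30 were below 0, with a median of -0.59. The 30 whose exons overlap host exons had a median of -0.35 with 9 of 14 tested below 0, and -0.25 with 18 of 30 below 0 with no filter. The 5 inside transcripts with a fold change above 0 (Ube4bos1, Adap2os, Zeb2os, Arhgap27os2 and Sardhos) all belonged to the overlapping group, and none of them passed the test. This division by exons was made after the values had been seen, and the difference between the sharing and the non-sharing transcripts was not tested.

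The summed level of the 60 inside transcripts was 999, 1249 and 904 CPM in TESS samples and 1345, 1515 and 1392 CPM in CON samples. Nrg3os alone made up a large share of it. Without Nrg3os the sums were 732, 858 and 694 CPM in TESS samples and 997, 1009 and 921 CPM in CON samples, again with no overlap between the groups.

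The level of each transcript was also set against its own host in the same sample, as log2 of (transcript CPM + 1) over (host CPM + 1). Over 76 pairs with at least 50 UMIs on each side this ratio was lower in TESS in 61, with a median difference of -0.34. In the 28 pairs with the transcript inside the host it was lower in 26, with a median of -0.60. For Sox5os4 the log2 ratio was -2.83, -2.89 and -3.13 in TESS samples and -2.04, -1.81 and -1.93 in CON samples, a difference of -1.02. For Nrg3os it was -3.81, -3.50 and -4.02 in TESS samples and -3.38, -2.86 and -3.10 in CON samples, a difference of -0.66. The groups did not overlap in either pair. Each gave an exact two-sided permutation p of 0.10, the smallest that 3 samples against 3 allow.

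**Figure D2:**
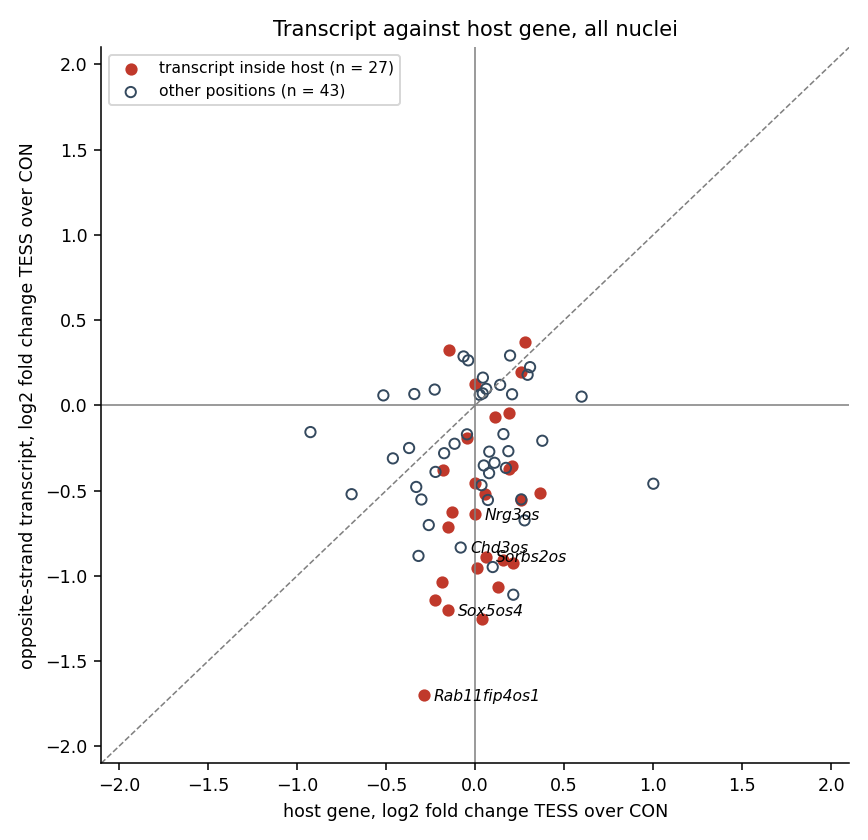
Log2 fold change of TESS over CON in all nuclei for each opposite-strand transcript (y axis) against that of its host gene (x axis), for 27 pairs with the transcript inside the host (filled) and 43 with other positions (open). The dashed line marks equal change; Sox5os4, Rab11fip4os1 and Nrg3os lie far below it at -1.20, -1.70 and -0.64 while their hosts lie between -0.29 and 0.

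Neurons were the authors' class with the most UMIs, 64.4% of all. Of the 57 transcripts tested there, 41 had a fold change below 0 and the median was -0.26, beside -0.01 over all 11686 genes tested and 0.06 over 115 hosts. In neurons 5 transcripts were called lower in TESS and 0 higher, where 0.77% of all genes were called lower. All TESS samples lay below all CON samples for 14 of the 57, against 10.0% of all genes. Of 309 antisense transcripts without an os name tested in neurons, 22 were called lower and 0 higher, with a median of -0.34. All TESS samples lay below all CON samples for 77 of those 309. In the same neurons the summed markers of neurons were 2919 to 3076 CPM in TESS and 2668 to 2842 CPM in CON samples, and those of oligodendrocyte precursor cells 16.2 to 20.3 CPM in TESS and 9.61 to 11.97 CPM in CON samples. Those of microglia were 33.7 to 60.9 CPM in TESS and 61.2 to 84.9 CPM in CON samples, so all 3 sums differed without overlap. Their part in the neuronal results was not tested. None of the 115 hosts passed the edgeR test in neurons. At an unadjusted p below 0.05, 11 hosts were higher and 3 lower, where 6.49% of all genes were higher and 8.21% lower, and DESeq2 called 0 hosts as well.

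Sox5os4 had 32.1, 31.2 and 25.4 CPM in TESS neurons and 63.3, 78.0 and 56.6 CPM in CON neurons, with a fold change of -1.16 ± 0.19 (edgeR adjusted p = 0.00466). Chd3os fell to 37.1 ± 4.8 CPM in TESS neurons, against 62.3 ± 1.4 CPM in CON neurons (SD, n = 3 each; -0.77 ± 0.17, edgeR adjusted p = 0.0241). Rab11fip4os1 had 4.4, 5.0 and 3.0 CPM in TESS neurons and 12.7, 12.7 and 13.1 CPM in CON neurons (-1.58 ± 0.35, edgeR adjusted p = 0.0266). The CON values of these last 2 lay close together, and no TESS value reached them.

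Sorbs2os had 34.9, 46.1 and 27.4 CPM in TESS neurons and 64.5, 79.6 and 55.6 CPM in CON neurons, from 164 UMIs in TESS and 493 in CON. The groups lay apart and the fold change was -0.87 ± 0.20 (edgeR adjusted p = 0.0297). Its host Sorbs2 had 477.9, 470.0 and 479.5 CPM in TESS neurons and 416.9, 461.2 and 489.8 CPM in CON neurons, a fold change of 0.04 ± 0.11.

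Dtnbos had 91.9, 93.5 and 114.8 CPM in TESS neurons and 155.2, 143.3 and 136.9 CPM in CON neurons. The groups did not overlap, and the fold change was -0.57 ± 0.13 (edgeR adjusted p = 0.0365). Dtnb averaged 267.1 ± 30.0 CPM in TESS and 312.4 ± 60.1 CPM in CON neurons (SD, n = 3 each), with a fold change of -0.24 ± 0.14 and an adjusted p of 0.440. Dtnbos lost its call whichever of the 6 samples was left out, with adjusted p-values of 0.0649 to 0.143. Sox5os4 kept its call in 6 of those 6 fits in neurons, and Chd3os, Rab11fip4os1 and Sorbs2os in 2 each: all 3 lost it without TESS 3, CON 2 or CON 3, Chd3os also without TESS 2, and the other two also without TESS 1.

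Nrg3os, the most abundant of all, had 413.7, 549.2 and 319.0 CPM in TESS neurons and 528.5, 771.7 and 722.6 CPM in CON neurons. TESS 2 lay above CON 1, so the groups overlapped. The fold change was -0.67 ± 0.17 with an edgeR adjusted p of 0.0521, just short of the threshold. Nrg3 itself had 5698.4, 6156.9 and 4983.7 CPM in TESS neurons and 5459.8, 5583.5 and 6140.2 CPM in CON neurons, a fold change of -0.05 ± 0.12.

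**Figure D3:**
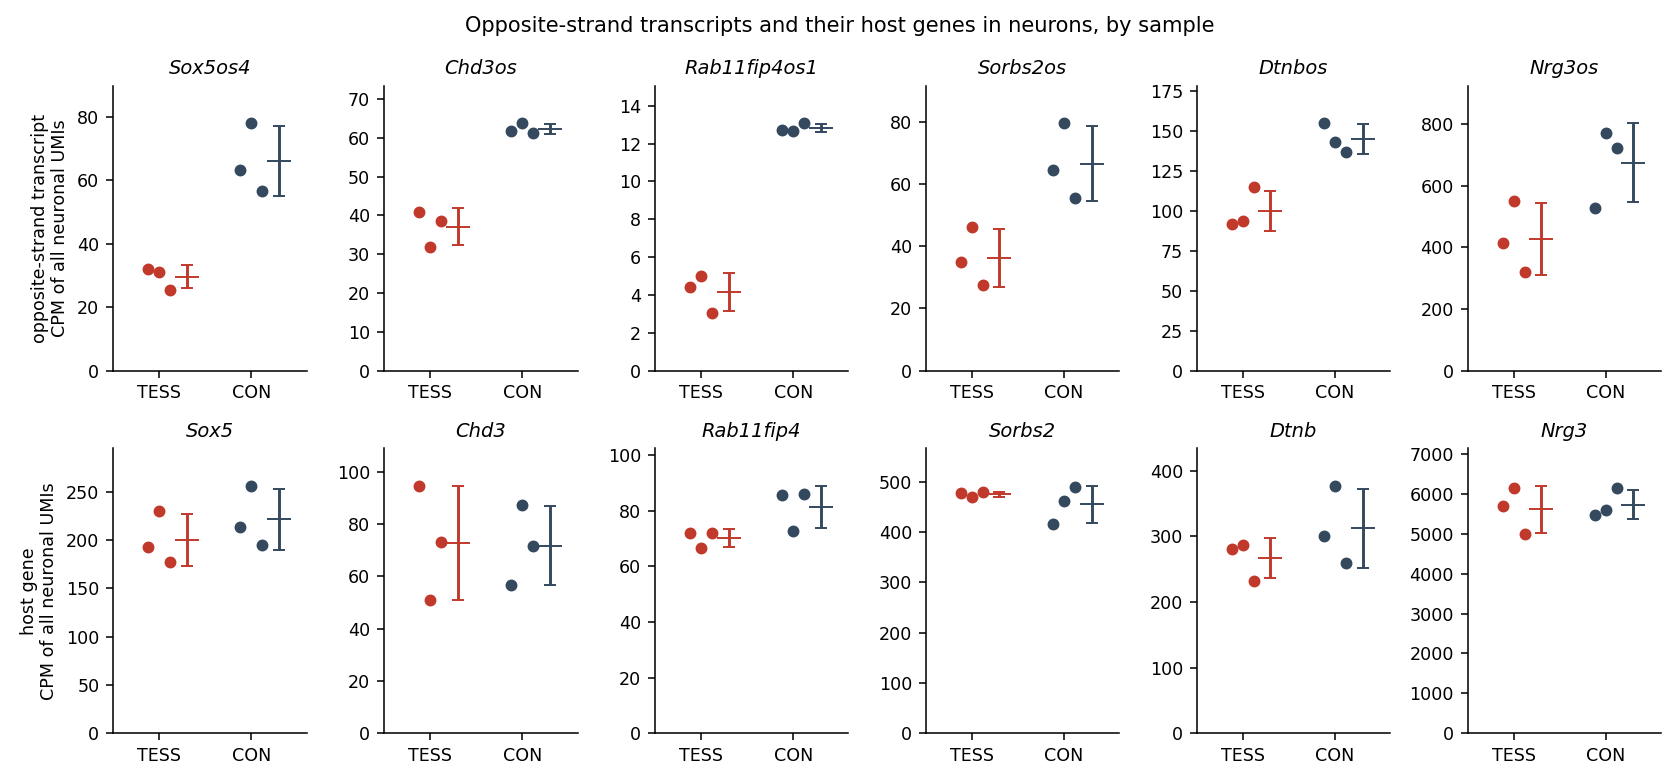
Level in neurons of 6 opposite-strand transcripts (upper row) and their host genes (lower row) in CPM of all neuronal UMIs (y axes, from 0), by sample, with TESS left of CON. Points are samples and bars are mean and SD (n = 3); the TESS points of the first 5 transcripts lie below all CON points, while those of 5 of the 6 hosts overlap, Rab11fip4 being the exception.

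None of the other most abundant transcripts was called in neurons by edgeR. Rapgef4os1, inside the gene of the cAMP-activated exchange factor EPAC2, had 208.2, 263.1 and 192.0 CPM in TESS neurons and 273.3, 274.0 and 312.2 CPM in CON neurons. These groups lay apart, with a fold change of -0.39 ± 0.14 and an adjusted p of 0.173. Its host Rapgef4 lay apart in the other direction, at 298.7 ± 18.6 CPM in TESS and 264.4 ± 8.6 CPM in CON neurons (SD, n = 3 each; 0.15 ± 0.12, adjusted p = 0.581). Ube4bos1, inside a ubiquitin ligase gene, had a fold change of 0.28 ± 0.15 in neurons, and Ino80dos, over the 5′ end of a gene for an INO80 remodelling subunit, had -0.26 ± 0.15. Man2c1os had -0.16 ± 0.18, Slc7a6os, a protein-coding gene downstream of an amino acid transporter gene, had -0.18 ± 0.14, and Brip1os had -0.27 ± 0.21. Their adjusted p-values were 0.398 to 0.731, and the groups of all 5 overlapped. Minos1, which encodes a mitochondrial inner membrane protein and has no host by the naming rule, averaged 75.6 ± 13.9 CPM in TESS and 68.8 ± 9.6 CPM in CON neurons (SD, n = 3 each; 0.11 ± 0.16, adjusted p = 0.793).

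Other transcripts with a small p over all nuclei missed the adjusted threshold. Rsf1os1 had 8.0, 10.8 and 7.0 CPM in all TESS nuclei and 15.5, 16.1 and 16.9 CPM in all CON nuclei (-0.92 ± 0.25, adjusted p = 0.0914), while Rsf1, a histone-binding remodelling factor, was higher in each TESS sample than in each CON sample (0.21 ± 0.12, adjusted p = 0.432). Cep83os, divergent from the gene of a centriole appendage protein, had 12.1, 20.7 and 18.3 CPM in TESS samples and 32.5, 23.0 and 23.2 CPM in CON samples (-0.67 ± 0.22, adjusted p = 0.172). Cep83 was again apart in the other direction (0.28 ± 0.13, adjusted p = 0.331). In both pairs the groups did not overlap, and neither gene of either pair passed the test.

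Nr6a1os (-0.63 ± 0.19), Fbxl12os (-0.88 ± 0.28), Lrp8os2 inside the reelin receptor gene Lrp8 (-0.52 ± 0.17), Rsf1os2 (-1.11 ± 0.39), Wdr83os (-0.48 ± 0.17) and Tbc1d22bos (-1.04 ± 0.41) also had all TESS samples below all CON samples over all nuclei, with adjusted p-values of 0.129 to 0.238. Groups in this set are apart partly by its choice, since it was taken by p. Their hosts Nr6a1, Fbxl12, Lrp8 and Wdr83 overlapped between groups, Rsf1 lay higher in TESS and Tbc1d22b lower.

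In oligodendrocytes 37 transcripts were tested, 24 had a fold change below 0, and the median was -0.18 beside -0.01 over all 8796 genes. The edgeR test called 2, where 1.65% of all genes were called in either direction. All TESS samples lay below all CON samples for 8 of the 37, against 10.1% of all genes. Of 138 antisense transcripts without an os name tested there, 106 had a fold change below 0, with a median of -0.41. Among those 138, 6 were called lower and 0 higher, and 25 had all TESS samples below all CON samples. Far1os was lower in TESS, at 9.1, 15.1 and 8.2 CPM in TESS oligodendrocytes and 22.9, 37.1 and 30.9 CPM in CON oligodendrocytes. It rested on 17 UMIs in TESS and 85 in CON, with a fold change of -1.56 ± 0.39 (edgeR adjusted p = 0.0349). Far1 had 129.3 ± 12.5 CPM in TESS and 127.9 ± 13.0 CPM in CON oligodendrocytes (SD, n = 3 each). The call of Far1os was lost without TESS 1, TESS 3, CON 2 or CON 3, with an adjusted p of up to 0.210.

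Dtnbos was higher in TESS oligodendrocytes, at 81.5, 71.4 and 78.8 CPM against 45.8, 39.9 and 41.6 CPM in CON oligodendrocytes. The groups lay far apart for their spread, from 125 UMIs in TESS and 117 in CON, with a fold change of 0.82 ± 0.21 (edgeR adjusted p = 0.0492). Dtnb had a fold change of 0.23 ± 0.19 there, and its groups overlapped. The markers of oligodendrocyte precursor cells (Pdgfra, Cspg4 and Vcan) summed to 29.7, 23.8 and 40.8 CPM in TESS oligodendrocytes and 19.5, 18.1 and 23.8 CPM in CON oligodendrocytes, with a fold change of 1.71 ± 0.50 for Vcan (adjusted p = 0.0891). Of the CPM of Dtnbos summed over the 6 classes, neurons held 37.6%, precursor cells 27.3% and oligodendrocytes 16.3%. The part of precursor cell RNA or of neuronal RNA in the Dtnbos values was not tested. Here too Dtnbos lost its call whichever of the 6 samples was left out, with adjusted p-values of 0.0645 to 0.193, and DESeq2 gave 0.172.

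The difference between the TESS effects in neurons and in other nuclei was tested for all genes as an interaction, with the sample as a block. Against all non-neuronal nuclei, where Dtnbos had 70.0, 50.5 and 58.6 CPM in TESS samples and 48.8, 43.2 and 40.0 CPM in CON samples, the neuronal log2 fold change minus that of the other nuclei was -1.02 ± 0.21 (SE, edgeR adjusted p = 0.0373). It was the 1 transcript of 66 tested that was called, where 0.0875% of all genes were called. The other nuclei include the oligodendrocytes in which Dtnbos is described above, so the interaction is not independent of those values. Against oligodendrocytes alone the difference was -1.40 ± 0.22 for Dtnbos and -1.73 ± 0.39 for Nrg3os (SE), given as a description. These were the 2 transcripts called in that contrast, where 0.727% of all genes were called.

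Nrg3os had 16.8, 32.5 and 32.6 CPM in TESS oligodendrocytes and 8.0, 9.5 and 17.8 CPM in CON oligodendrocytes, from 40 and 32 UMIs. Its groups overlapped (1.08 ± 0.40, adjusted p = 0.199). Its host Nrg3 was called higher there, at 382.7, 473.8 and 810.2 CPM in TESS and 158.1, 168.2 and 277.2 CPM in CON oligodendrocytes (1.39 ± 0.23, edgeR adjusted p = 0.00157). Both genes are mostly neuronal, with 97.6% of Nrg3os and 96.1% of Nrg3 UMIs in neurons. The neuron markers Snap25, Rbfox3 and Syt1 summed to 554 to 867 CPM in TESS oligodendrocytes and 523 to 781 CPM in CON oligodendrocytes, so their ranges overlapped. Their fold changes were -0.07, -0.04 and 0.99, with adjusted p = 0.0505 for Syt1. The part of neuronal RNA in these oligodendrocyte values was not tested.

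**Figure D4:**
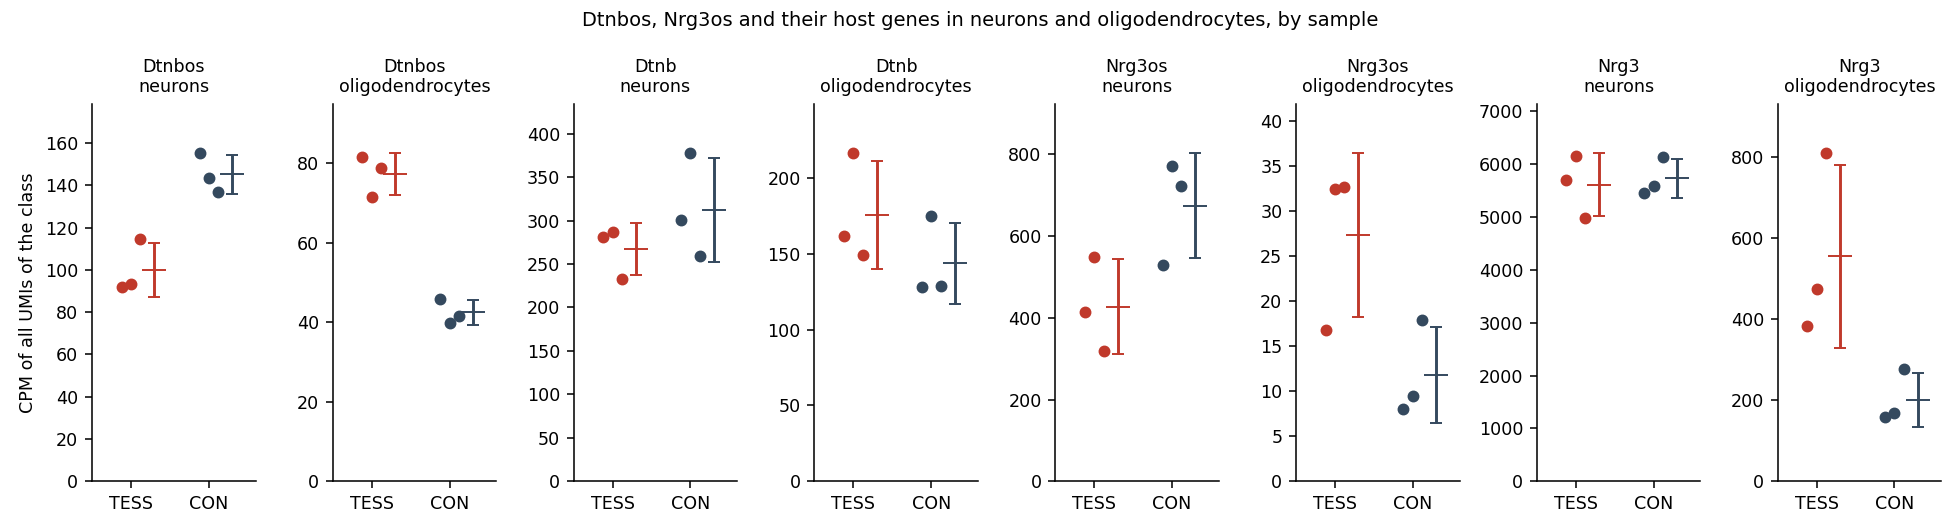
Levels of Dtnbos, Dtnb, Nrg3os and Nrg3 in CPM of all UMIs of the class (y axes, from 0), by sample, in neurons and oligodendrocytes, with TESS left of CON. Points are samples and bars are mean and SD (n = 3); Dtnbos lies lower in TESS neurons (91.9 to 114.8 against 136.9 to 155.2 CPM) and higher in TESS oligodendrocytes (71.4 to 81.5 against 39.9 to 45.8 CPM).

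Bcas3os1, the transcript with the most UMIs in oligodendrocytes (575), had 78.9, 125.5 and 81.6 CPM in TESS oligodendrocytes and 170.8, 147.3 and 145.2 CPM in CON oligodendrocytes. The groups lay apart, and the adjusted p of 0.0506 was just above the threshold (-0.76 ± 0.20). Bcas1os2, inside Bcas1, a gene of the myelinating lineage, had 23.3, 17.3 and 8.2 CPM in TESS oligodendrocytes and 32.1, 56.1 and 29.7 CPM in CON oligodendrocytes (-1.22 ± 0.36, adjusted p = 0.0941). Bcas1 stood at 487.5 ± 69.3 CPM in TESS and 482.8 ± 45.0 CPM in CON oligodendrocytes (SD, n = 3 each), a fold change of -0.03 ± 0.16. Both transcripts lie inside their hosts.

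Few transcripts were abundant enough to test in the smaller classes. In microglia 8 transcripts were tested and edgeR called 0, where 0.6% of all genes were called. At an unadjusted p below 0.05, 1 of the 8 was lower, against 5.84% of all genes. Adap2os, inside the gene of an Arf GTPase-activating protein, was the most abundant there. It had 1048.5, 848.1 and 752.4 CPM in TESS microglia and 1030.6, 1012.5 and 781.7 CPM in CON microglia, and its host Adap2 had 650.1, 444.3 and 413.8 CPM in TESS and 537.3, 591.8 and 521.2 CPM in CON microglia. Both pairs of ranges overlapped, with fold changes of -0.09 ± 0.21 and -0.10 ± 0.23.

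In astrocytes Ino80dos alone was tested (0.20 ± 0.35, adjusted p = 0.872), where 0.976% of all genes were called. In oligodendrocyte precursor cells Brip1os alone was tested (0.13 ± 0.43, adjusted p = 0.962), where 0.155% were called. Neither had an unadjusted p below 0.05 by edgeR. In endothelial cells 0 transcripts passed the filter. Tbx3os1, over the 5′ end of the gene of the transcription factor Tbx3, had 115.6, 201.2 and 292.8 CPM in TESS and 406.1, 242.7 and 236.1 CPM in CON endothelial cells, from 20 and 51 UMIs, with overlapping groups.

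The cell class in which a transcript was highest was compared with that of its host. Among the 76 pairs with at least 50 UMIs on each side the class with the highest CPM was the same in 40, and the median Spearman correlation over the 6 classes was 0.54, a description of classes that share libraries. Of 90 transcripts with at least 50 UMIs, neurons were the highest class for 25, microglia for 21, oligodendrocytes and astrocytes for 12 each, oligodendrocyte precursor cells for 11 and endothelial cells for 9. Sox5os4 was highest in oligodendrocyte precursor cells (110 CPM), followed by astrocytes (69.6) and neurons (53.0), and Sox5 was highest in the same class. In precursor cells Sox5os4 had 58.1, 60.0 and 16.5 CPM in TESS samples and 179.1, 181.7 and 72.3 CPM in CON samples, from 8 and 42 UMIs, too few to pass the filter. In astrocytes it had 0.0, 65.8 and 24.4 CPM in TESS samples and 79.6, 82.9 and 100.4 CPM in CON samples, from 8 and 46 UMIs. TESS lay below CON in both of these classes.

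**Figure D5:**
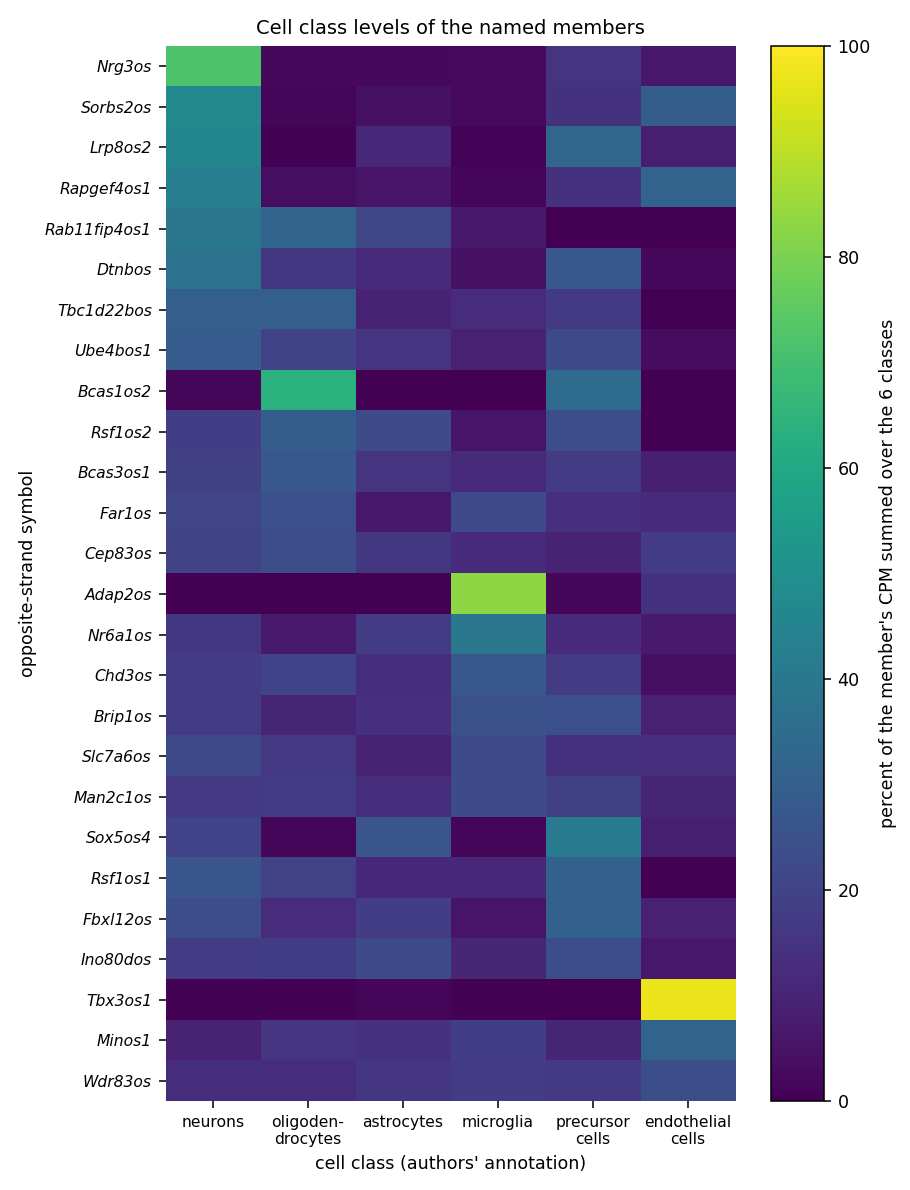
Percent of each named transcript's CPM, summed over the authors' 6 cell classes, that falls in each class (color, 0 to 100), with transcripts in rows and classes in columns, TESS and CON nuclei pooled. Endothelial cells hold 97.1% of Tbx3os1, microglia 83.0% of Adap2os, neurons 72.0% of Nrg3os and oligodendrocytes 63.9% of Bcas1os2.

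Across the 24 neuron subtypes with at least 10 nuclei in every sample, transcripts were compared with their hosts. Spearman correlations of pooled CPM were 0.85 for Sox5os4 with Sox5, 0.81 for Nrg3os with Nrg3, 0.69 for Sorbs2os with Sorbs2 and 0.56 for Dtnbos with Dtnb, as a description of subtypes that share libraries. They were 0.04 for Chd3os, 0.01 for Far1os and -0.07 for Rab11fip4os1. With TESS and CON nuclei pooled, Sox5os4 and Nrg3os were highest in the Tac1 subtype, at 427 and 767 CPM, as were their hosts at 2089 and 8782 CPM. Within groups the order differed: Sox5os4 was highest in Tac2/Nmu in TESS samples (mean 209.3 CPM, 14 UMIs) and in Tac1 in CON samples, and Nrg3os in Tac1 in TESS samples (623 CPM) and in Pdyn in CON samples (811 CPM), where Tac1 had 799 CPM. In Tac1 neurons Sox5os4 averaged 180.0 CPM in TESS and 518 CPM in CON samples, from 18 and 143 UMIs. Dtnbos and Sorbs2os were highest in the Rorb subtype in the pooled nuclei, at 202 and 130 CPM, again with their hosts. In TESS samples Dtnbos was highest in Maf/Clbn2 (188 CPM) and Sorbs2os in Lxh1/Nxph1 (84.2 CPM, 8 UMIs), and in CON samples both were highest in Rorb (235 and 135 CPM).

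The mean was lower in TESS than in CON samples in 24 of 24 subtypes for Nrg3os, in 21 each for Dtnbos and Sorbs2os, in 20 each for Sox5os4 and Chd3os, and in 19 each for Rab11fip4os1 and Far1os. The same count for the hosts was 18 for Nrg3, 19 for Dtnb, 9 for Sorbs2, 7 for Sox5, 10 for Chd3, 16 for Rab11fip4 and 9 for Far1. Many of these subtypes hold few UMIs of a transcript, and Rab11fip4os1 had none in 4 of them. Over the subtypes with at least 20 UMIs, a minimum chosen after the values were seen, the TESS mean was lower in 23 of 23 for Nrg3os, 18 of 21 for Dtnbos, 14 of 16 for Sorbs2os, 9 of 10 for Chd3os and 7 of 8 for Sox5os4, while Rab11fip4os1 and Far1os reached 20 UMIs in 0 subtypes. Subtypes of 1 library are not replicates, so these counts carry no test. Except for Nrg3os and Far1os, these transcripts had been called lower in neurons, of which the subtypes are parts. Mostly lower subtype means therefore follow in part from that choice. The share of all genes lower in as many subtypes is not given here.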

How the data were processed

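The deposited table holds UMI counts (unique molecular identifiers) per nucleus, read as counts from the deposited values, which are whole numbers. Cell Ranger 2.2.0, Seurat 3 and, as builds, mm10 and GRCm38 come from the submitters' processing notes, and the 10x version 2 kit from the labels' protocols. For the filters on nuclei, for intronic reads and for the strand used in counting, the setting is not given in the sources used here. Cell classes and neuron subtypes are the authors' deposited annotation. Doublets were not called here.

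UMIs were summed per sample within each class. edgeR 4.0.16 in R 4.3.3 tested TESS against CON (quasi-likelihood F test, TMM, filterByExpr with a minimum count of 10, no batch term), with Benjamini-Hochberg adjustment over all genes tested in the class, and a call at an adjusted p below 0.05. The script was tested on simulated data. Each SE was obtained from the fold change and its F statistic. CPM are UMIs per 1000000 UMIs of the class in that sample. Counts of tested genes with all TESS samples below or above all CON samples used CPM after TMM instead. Hosts were matched by symbol, and positions came from GENCODE vM21. DESeq2 1.42.0, other normalization and filters, a replicate block, batch, equal numbers of nuclei per class or subtype and leaving out samples were alternatives.

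The members and lists were chosen with earlier results of these data known. Named were Sox5os4, Nrg3os and Dtnbos, every transcript called in any class, the 10 with the most UMIs, those with the smallest p over all nuclei up to 24 in all, the transcript with the most UMIs in each class, and their hosts. Sox5os2 and the 5 inside transcripts above 0 were named after their values were seen. Precision is limited by 3 samples per group and by low counts.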

Additional observations from a re-analysis of the deposited data

Results flagged for a closer look

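The effect of TESS on Dtnbos differed between neurons and the pool of all other nuclei, not each class in it. The neuronal log2 fold change minus that of the pooled other nuclei was -1.02 ± 0.21 (edgeR adjusted p = 0.0373). The difference was called in the fit without TESS 3 and lost in the other 5 fits that left out 1 sample, where its value was -1.12 to -0.78. Its direction was the same in all 6.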

How the results depend on the processing

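No named transcript with a call changed direction under any alternative run. DESeq2 called 4 transcripts lower and 0 higher over all nuclei, where edgeR called 3 lower. Over all nuclei, 3 calls became 6 with no filter on low counts, 5 with the replicate block, 0 with batch as a covariate, 0 in batch 3 alone, and 1 to 7 without 1 sample. In neurons, 5 became 3 with DESeq2, which gave no adjusted p for Sox5os4 and Rab11fip4os1, 9 with no filter, 0 with batch as a covariate, 0 in batch 3 alone, and 1 to 5 without 1 sample. In oligodendrocytes, the count of 2 (Dtnbos and Far1os) was 0 with DESeq2, 1 (Far1os) with a minimum count of 3, 0 in batch 3 alone, and 0 to 2 without 1 sample. With batch as a covariate it was 1, but that was Bcas3os1, and Dtnbos and Far1os both lost their calls. With no filter on low counts, and with the replicate block, the oligodendrocyte calls were Bcas1os2, Bcas3os1 and Far1os. Without TESS 2 they were Bcas3os1 and Far1os. Dtnbos was called in oligodendrocytes only in the edgeR fit described above and with another normalization. For Far1os in oligodendrocytes DESeq2 gave no adjusted p. The count of 1 interaction was 2 against oligodendrocytes alone, where 0.727% of all genes were called, and 0 to 1 without 1 sample. Same-numbered samples did not deviate together (correlations of -0.15 to 0.02), so the replicate block rests on a shared number only. The causes of these moves were not tested. Except for the interaction, the counts under the alternatives stand without the share of all genes called in the same fit. A rise or fall in them is therefore not shown to be particular to these transcripts. Equal numbers of nuclei per class kept 3 calls over all nuclei, of the same 3 transcripts. Equal numbers of nuclei per neuron subtype, with 568 nuclei per sample, left 39 of the results compared the same. With that draw 2 became weaker and 1 stronger, and which of them moved is not given here. Counts of 0 in the smaller classes rest on 1 to 8 tested transcripts, and low UMI counts there limit what could be detected.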
